A study of Mus musculus with 9 samples.

Results

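The enzymes of triglyceride synthesis were followed in whole liver through 10 genes, *Gpam*, *Agpat2*, *Agpat3*, *Lpin1*, *Lpin2*, *Lpin3*, *Mogat1*, *Mogat2*, *Dgat1* and *Dgat2*. They were taken by gene symbol from the 22206 transcript clusters of a Clariom S mouse array, and each of the 10 had 1 cluster. The series holds 9 arrays of male mice, 3 per group, each taken to be 1 animal. The first group is C57BL/6JHamSlc-ob/ob mice gavaged with an extract of *Vigna umbellata* at 100 mg/kg for 42 days, the second is ob/ob mice given vehicle for 42 days, and the third is wild-type C57BL/6JHamSlc-+/+ mice given vehicle for 42 days. All animals were 6 weeks old before 1 week of acclimatization and ate standard chow. The ob/ob mutation removes functional leptin, the adipocyte hormone that restrains feeding, from the whole animal, so the liver is seen together with obesity and overeating.

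Liver cells build triglyceride by a main route in which glycerol 3-phosphate is acylated (GPAT enzymes), acylated again to phosphatidic acid (AGPAT enzymes), dephosphorylated to diacylglycerol (lipins) and acylated a last time (DGAT enzymes). A bypass makes diacylglycerol from monoacylglycerol (MGAT enzymes, encoded by *Mogat* genes) and is best known from the intestine. The liver of an obese mouse stores much of this product in lipid droplets and secretes part of it in very low density lipoprotein.

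In ob/ob vehicle liver *Mogat1*, *Gpam* and *Agpat2* were higher than in wild type and *Lpin1* was lower, by between 6.13-fold and 9.51-fold. Those 4 of the 10 genes passed the test (limma, adjusted p under 0.05 over all clusters), 3 higher and 1 lower, where 2.96% of all clusters passed it (2.28% higher, 0.68% lower). The genes of the last step, *Dgat1* and *Dgat2*, and *Agpat3*, *Mogat2*, *Lpin2* and *Lpin3* did not pass. The calls of *Gpam*, *Agpat2* and *Lpin1* were lost in 7, 5 and 3 of 18 alternatives to the fit. Between extract and ob/ob vehicle 0 of the 10 passed, as did 0% of all clusters.

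Values are the deposited log2 signals, so that 1 unit is a doubling, and they show differences of 1 gene between groups and not the order of different genes. Array medians lay between 5.07 and 5.36 log2. Wild-type vehicle 3 and ob/ob vehicle 3 stood apart, with correlations of 0.948 to 0.955 to their own groups where the other pairs within groups had 0.980 to 0.990, so results are also given without them. The 6 hepatocyte markers looked up (*Alb*, *Ttr*, *Apoa1*, *Apob*, *Tat*, *Cps1*) were bright on every array, with a mean of 18.25 to 18.75 log2 on extract arrays, 18.12 to 18.72 on ob/ob vehicle arrays and 18.96 to 19.13 on wild-type arrays. That mean holds values at the ceiling: *Alb* was at the highest value of its array on 9 of 9 arrays, *Ttr* on 8 and *Apoa1* on the 3 wild-type arrays, so these can show no further rise. Of the 6, 3 were lower in ob/ob vehicle than in wild type by the design text's criterion (unadjusted p under 0.05 and a fold over 1.1), where 6.72% of all clusters were, and 0 passed in limma. As a yardstick for background, each value was set against the 1091 olfactory receptor clusters of the same array, genes that liver is not known to use. Those receptors spread over a range whose middle 95% ended at 5.33 to 5.45 log2 on extract arrays, 5.35 to 6.44 on ob/ob vehicle arrays and 5.56 to 6.62 on wild-type arrays. *Gpam*, *Agpat2*, *Agpat3*, *Lpin1*, *Lpin2* and *Dgat2* were above it on all 9 arrays.

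**Figure D1:**
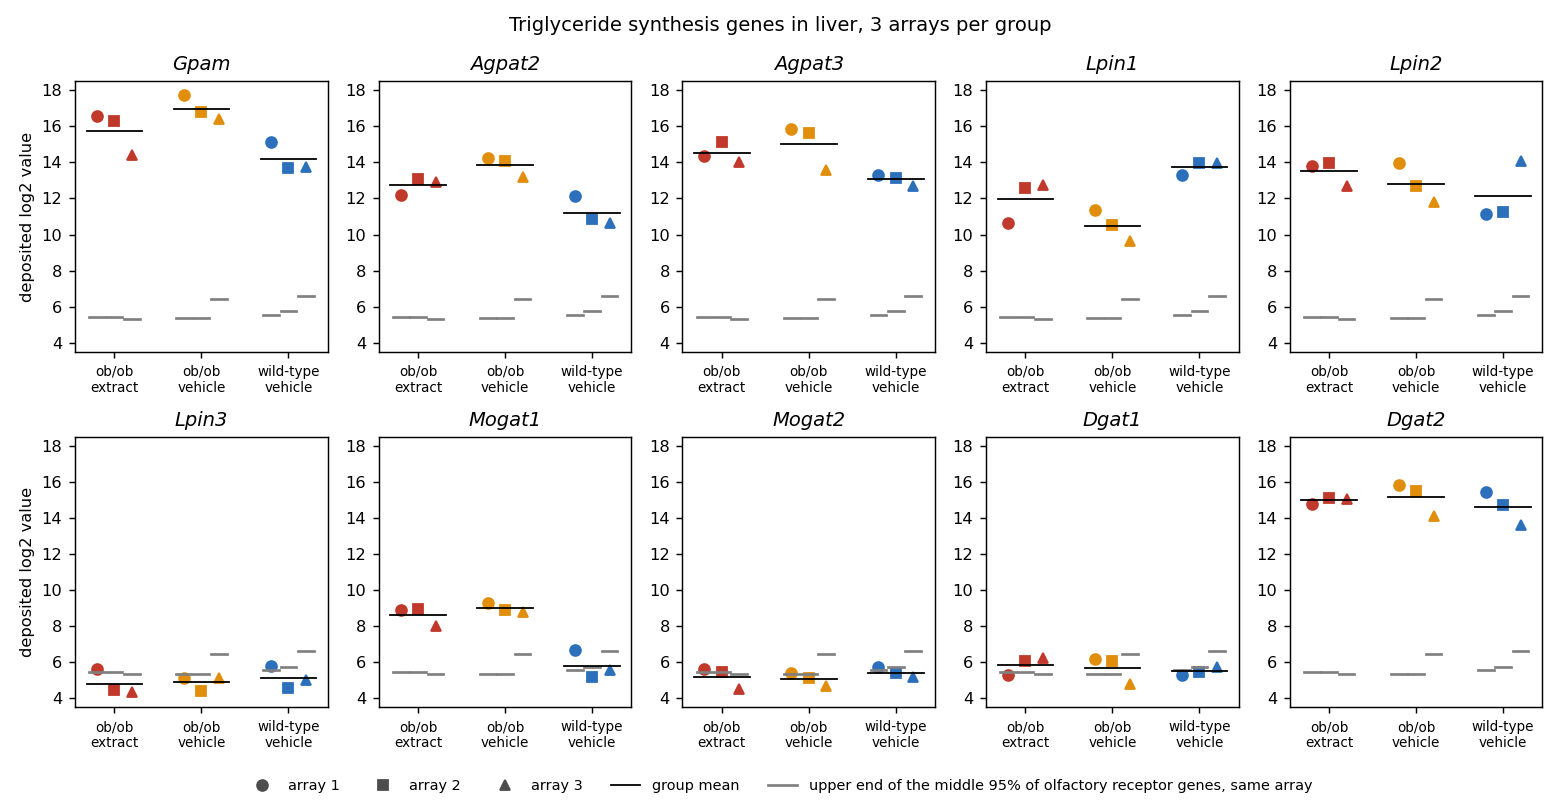
Deposited log2 value of each gene (vertical axis) on the 3 arrays of the ob/ob extract, ob/ob vehicle and wild-type vehicle groups, with the group mean as a black line and, in grey, where the middle 95% of the olfactory receptors of that array ended. *Gpam*, *Agpat2*, *Agpat3* and *Mogat1* lie higher on all ob/ob vehicle arrays than on any wild-type array, *Lpin1* lies lower, and *Lpin3*, *Mogat2* and *Dgat1* lie around the grey marks.

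*Gpam* encodes the mitochondrial glycerol-3-phosphate acyltransferase that opens the main route. It measured 17.73, 16.78 and 16.41 log2 on ob/ob vehicle arrays, against 15.13, 13.69 and 13.76 on wild-type arrays. All ob/ob vehicle arrays were above all wild-type arrays; such a gap was seen in 19.5% of the whole table (9.71% higher, 9.78% lower) and in 5 of the 10 genes, 4 higher and 1 lower. *Gpam* averaged 16.97 ± 0.68 log2 over the ob/ob vehicle arrays and 14.19 ± 0.81 over the wild-type arrays (SD, n = 3 each). The difference was 2.78 log2 (SE 0.60, 6.87-fold, limma adjusted p = 0.0402). That call was close to the threshold and was lost on dropping any of 5 arrays: ob/ob vehicle 1 (adjusted p = 0.149), ob/ob vehicle 2 (0.113), wild-type vehicle 2 (0.153), wild-type vehicle 3 (0.123) or extract 2 (0.0668). It was also lost after quantile normalization (0.0668) and with only the 2 groups in the fit (0.0518). The difference itself stayed between 2.40 and 3.25 log2 over 18 alternatives.

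The promoter windows of the 4 genes that passed are shown as a description, and no test was made on them. They run from 250 bases before to 50 bases after a RefSeq start site (GRCm38.p6), 5′ to 3′ on the gene's strand, with motif matches on either strand in capitals. The motifs searched were CACGTG (E-box, bound by factors such as USF and ChREBP), TCACNCCAC (a sterol response element), the peroxisome proliferator response element, the CCAAT box, the GC box (GGGCGG) and the TATA box (TATAAA). Of all 32851 windows in the RefSeq table, 7.15% held CACGTG, 1.24% TCACNCCAC, 0.381% the peroxisome proliferator element, 37.4% a CCAAT box, 35.7% a GC box and 13.6% a TATA box. *Gpam* has 2 start sites in the table, at chr19:55127189-55127488 and chr19:55099428-55099727, both on the minus strand. The window of the first holds a CCAAT box 74 bases upstream of the start and that of the second a GC box 16 bases upstream.
Gpam, chr19:55127189-55127488: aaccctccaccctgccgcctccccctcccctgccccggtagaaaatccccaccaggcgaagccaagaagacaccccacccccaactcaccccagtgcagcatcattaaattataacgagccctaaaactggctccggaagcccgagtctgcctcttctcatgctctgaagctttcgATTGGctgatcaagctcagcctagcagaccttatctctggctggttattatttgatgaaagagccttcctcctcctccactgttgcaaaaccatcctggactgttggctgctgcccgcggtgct
Gpam, chr19:55099428-55099727: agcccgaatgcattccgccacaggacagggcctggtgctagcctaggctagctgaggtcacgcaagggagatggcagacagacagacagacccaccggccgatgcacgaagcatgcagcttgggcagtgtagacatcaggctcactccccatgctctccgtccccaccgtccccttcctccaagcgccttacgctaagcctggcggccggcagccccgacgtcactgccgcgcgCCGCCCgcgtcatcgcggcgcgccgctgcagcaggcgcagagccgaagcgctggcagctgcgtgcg

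*Agpat2* encodes an acyltransferase of the second step, whose loss in mice and people causes lipodystrophy with a fatty liver. It stood at 14.23, 14.07 and 13.17 log2 on ob/ob vehicle arrays, against 12.16, 10.84 and 10.62 on wild-type arrays. Every ob/ob vehicle array was above every wild-type array, with means of 13.82 ± 0.57 log2 over the ob/ob vehicle arrays and 11.21 ± 0.83 over the wild-type arrays (SD, n = 3 each). The difference was 2.62 log2 (SE 0.45, 6.13-fold, limma adjusted p = 0.0155). The call was lost without ob/ob vehicle 1 (adjusted p = 0.071) or ob/ob vehicle 2 (0.0679), on dropping wild-type vehicle 2 (0.081) or wild-type vehicle 3 (0.057), and with only the 2 groups in the fit (0.0548).

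*Agpat3*, an acyltransferase of the same step, measured 15.83, 15.60 and 13.60 log2 on ob/ob vehicle arrays, against 13.32, 13.13 and 12.71 on wild-type arrays. The groups did not overlap, but ob/ob vehicle 3 was close to the wild-type arrays. The difference of 1.96 log2 (SE 0.53, 3.88-fold) did not pass in limma (adjusted p = 0.0859). It passed with the replicate number as a block (adjusted p = 0.0368), without ob/ob vehicle 3 (2.66 log2, 0.00212), with array weights (0.00373) and without both arrays that stood apart (2.49 log2, 0.00199).

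The promoter window of *Agpat2* (minus strand) is rich in G and C (72.0%, against a median of 52.7% over all windows) and holds 3 GC boxes, of which a pair overlaps by 1 base. The window of *Agpat3* held 0 matches to the motifs searched.
Agpat2, chr2:26604368-26604667: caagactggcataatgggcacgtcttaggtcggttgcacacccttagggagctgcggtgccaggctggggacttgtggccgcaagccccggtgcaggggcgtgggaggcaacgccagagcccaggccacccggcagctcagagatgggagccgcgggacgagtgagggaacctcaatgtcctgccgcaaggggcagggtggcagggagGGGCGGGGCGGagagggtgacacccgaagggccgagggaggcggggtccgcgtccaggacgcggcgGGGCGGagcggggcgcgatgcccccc

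The lipins are phosphatidic acid phosphatases that make the diacylglycerol of the main route, and lipin 1 is also known as a coactivator of PPARα with PGC-1α in fasting liver. *Lpin1* had 11.36, 10.50 and 9.62 log2 on ob/ob vehicle arrays, against 13.31, 13.94 and 13.98 on wild-type arrays. All ob/ob vehicle arrays were under all wild-type arrays, and ob/ob vehicle 3 was the lowest of the 9. The means were 10.49 ± 0.87 log2 over the ob/ob vehicle arrays and 13.74 ± 0.38 over the wild-type arrays (SD, n = 3 each). The difference was −3.25 log2 (SE 0.58, 9.51-fold lower, limma adjusted p = 0.0178). It was the only member lower in ob/ob vehicle that passed, where 0.68% of all clusters were called lower. The call was lost without ob/ob vehicle 2 (adjusted p = 0.0679) or wild-type vehicle 2 (0.0834) or 3 (0.0648).

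*Lpin2*, the lipin known to be abundant in liver, had the widest spread of the 10 genes within wild type (SD 1.68, n = 3). It measured 13.96, 12.67 and 11.81 log2 on ob/ob vehicle arrays, against 11.13, 11.22 and 14.09 on wild-type arrays. Wild-type vehicle 3 was the highest of all 9 arrays while the other wild-type arrays were the lowest, and the difference of 0.67 log2 (SE 0.78, 95% confidence interval −1.07 to 2.40) did not pass (limma adjusted p = 0.730). Without both arrays that stood apart *Lpin2* was higher in ob/ob vehicle by 2.14 log2 and passed (adjusted p = 0.0182). *Lpin3*, the third lipin gene, was dim. On ob/ob vehicle arrays it had 5.11, 4.40 and 5.14 log2, against 5.82, 4.60 and 5.02 on wild-type arrays, and 7 of its 9 values in the series lay within the olfactory receptor range, so a difference in it could not be read.

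The *Lpin1* window (minus strand) held 0 matches to the motifs searched, which says only that those letters are not in this stretch. CACGTG was found in 1 of 3 *Lpin2* windows and 1 of 2 *Lpin3* windows.
Lpin1, chr12:16610917-16611216: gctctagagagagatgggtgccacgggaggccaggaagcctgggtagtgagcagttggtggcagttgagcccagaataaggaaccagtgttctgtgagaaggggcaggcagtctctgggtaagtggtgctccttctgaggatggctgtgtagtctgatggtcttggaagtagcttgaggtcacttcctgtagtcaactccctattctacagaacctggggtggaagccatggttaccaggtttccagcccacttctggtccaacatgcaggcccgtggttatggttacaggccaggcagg

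*Mogat1* encodes monoacylglycerol acyltransferase 1 of the bypass. It measured 9.26, 8.90 and 8.80 log2 on ob/ob vehicle arrays, against 6.70, 5.21 and 5.55 on wild-type arrays. The ob/ob vehicle arrays lay within 0.46 log2 of each other and well above every wild-type array, with means of 8.99 ± 0.24 log2 over the ob/ob vehicle arrays and 5.82 ± 0.78 over the wild-type arrays (SD, n = 3 each). The difference was 3.17 log2 (SE 0.40, 8.98-fold, limma adjusted p = 0.00397). On wild-type arrays 2 and 3 the value was within the olfactory receptor range, so the size of the fold rests on values that may be background. *Mogat1* passed in 18 of 18 alternatives, with adjusted p between 6.08e-04 and 0.0248, which held for none of the other members.

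The 5 clusters with a profile most like that of *Mogat1* over the 9 arrays, among 17123 named genes, were *Fth1* (correlation 0.988), *Apoa4* (0.980), *Decr1* (0.978), *Secisbp2l* (0.976) and *Gstm4* (0.975). They encode the ferritin heavy chain, apolipoprotein A-IV, a mitochondrial 2,4-dienoyl-CoA reductase, a SECIS-binding protein relative and a glutathione transferase. For *Agpat2* the most alike was *Bsg* (0.991), for *Gpam* *Zfp655* (0.956) with the malic enzyme gene *Me1* in the third place (0.951), and for *Lpin1* *Zfp445* (0.961). These values describe arrays that fall into 3 groups, and a gene that differs between the groups in the same way will score high.

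The *Mogat1* window (plus strand) holds a CCAAT box just after the start site and has 43.7% G and C.
Mogat1, chr1:78510810-78511109: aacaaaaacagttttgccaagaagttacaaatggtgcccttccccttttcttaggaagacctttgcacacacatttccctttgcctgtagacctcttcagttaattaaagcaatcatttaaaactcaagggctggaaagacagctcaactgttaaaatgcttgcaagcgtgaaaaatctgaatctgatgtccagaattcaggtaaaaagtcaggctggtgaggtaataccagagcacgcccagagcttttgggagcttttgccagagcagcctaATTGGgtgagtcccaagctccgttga

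*Mogat2* encodes the related enzyme of the intestine. It stood at 5.43, 5.15 and 4.71 log2 on ob/ob vehicle arrays, against 5.74, 5.38 and 5.17 on wild-type arrays, and 2 of 3 values in each of these groups were within the olfactory receptor range. The difference of −0.33 log2 (95% confidence interval −1.08 to 0.41) did not pass (limma adjusted p = 0.678), and the groups overlapped.

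The last acylation is shared by DGAT1 and DGAT2, enzymes of unrelated sequence families. *Dgat2* measured 15.80, 15.48 and 14.11 log2 on ob/ob vehicle arrays, against 15.43, 14.72 and 13.63 on wild-type arrays. The ranges overlapped almost wholly, and array 3 was the lowest in both vehicle groups. The difference of 0.54 log2 (95% confidence interval −0.58 to 1.65) did not pass (limma adjusted p = 0.649), and the interval leaves room for a change of up to 1.65 log2 higher. *Dgat1* was dim, at 6.18, 6.08 and 4.81 log2 on ob/ob vehicle arrays, against 5.31, 5.47 and 5.75 on wild-type arrays, all 3 of the wild-type values being within the olfactory receptor range. Its difference of 0.18 log2 (95% confidence interval −0.69 to 1.05) did not pass (adjusted p = 0.867).

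**Figure D2:**
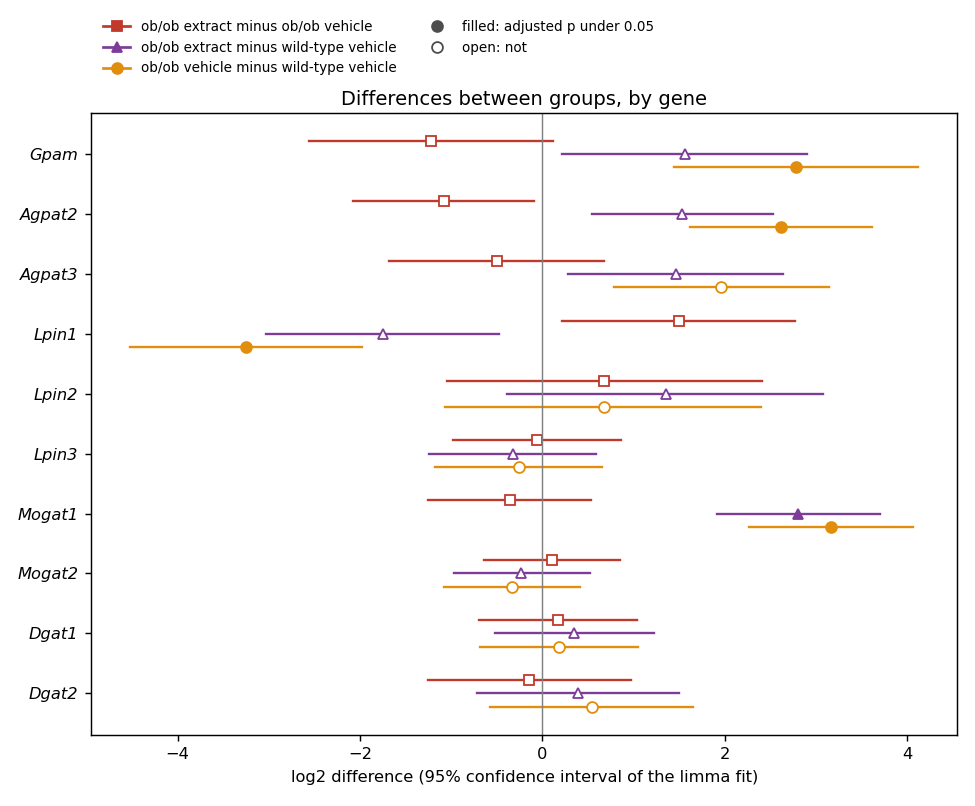
Log2 differences (horizontal axis) with 95% confidence intervals of the limma fit for each gene, for extract minus ob/ob vehicle (red squares), extract minus wild type (purple triangles) and ob/ob vehicle minus wild type (orange circles). Filled symbols passed at an adjusted p under 0.05; they are *Mogat1* in both comparisons with wild type and *Gpam*, *Agpat2* and *Lpin1* in ob/ob vehicle against wild type.

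Over the 10 genes the median difference between ob/ob vehicle and wild type was 0.60 log2, against −0.06 over all clusters, with a range of −3.25 (*Lpin1*) to 3.17 (*Mogat1*). Without both arrays that stood apart 6 genes passed (5 higher, 1 lower), *Agpat3* and *Lpin2* being added to the 4, and 7.86% of all clusters did. Leaving out 1 array at a time gave between 1 and 5 genes, where 0.662% to 7.56% of all clusters passed. *Mogat1* alone passed on dropping wild-type vehicle 2, wild-type vehicle 3 or ob/ob vehicle 2. With only the 2 groups in the fit *Mogat1* and *Lpin1* passed, where 0.932% of all clusters did. By the design text's own criterion 5 genes differed, *Agpat3* with the 4 named (4 higher, 1 lower), where 17% of all clusters did (10.3% higher, 6.72% lower).

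**Figure D3:**
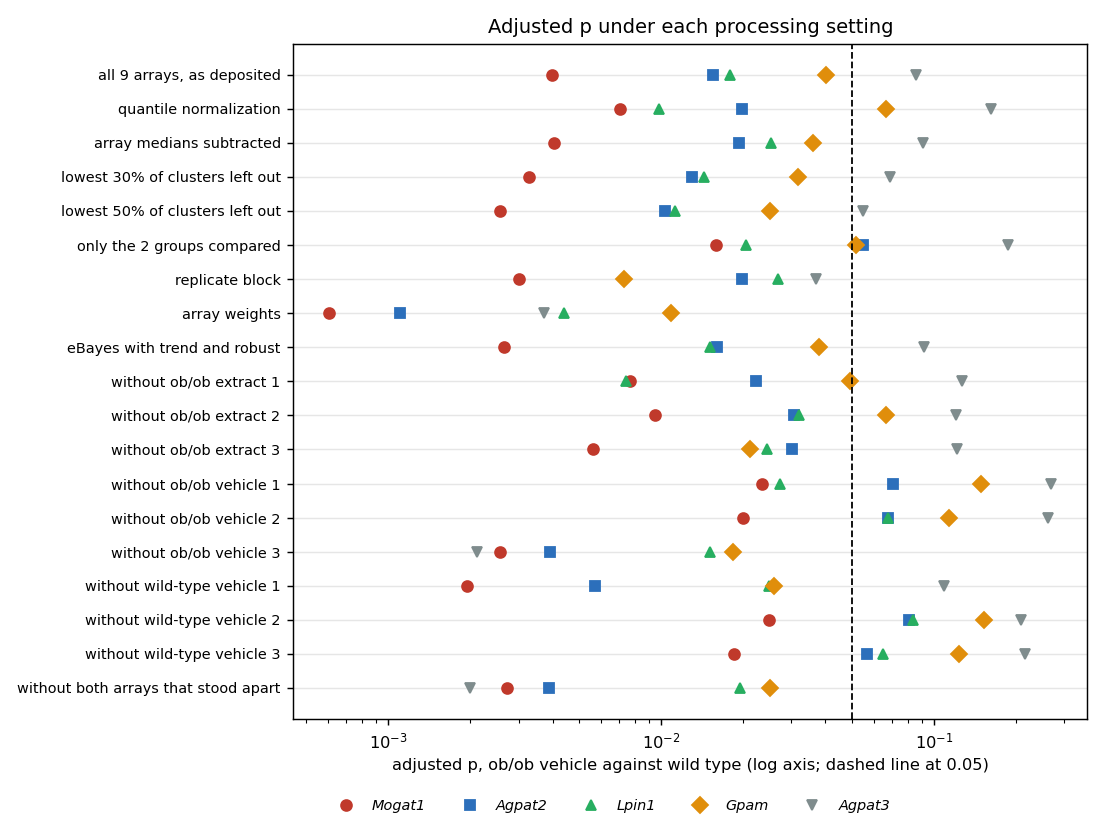
Adjusted p of ob/ob vehicle against wild type (horizontal log axis, dashed line at 0.05) for 5 genes under the processing used and 18 alternatives (rows). *Mogat1* lies left of the line in every row, *Agpat3* lies right of it in the top row and left of it in 4 others, and *Gpam*, *Agpat2* and *Lpin1* cross it when single arrays are left out.

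Set against ob/ob vehicle, the extract moved no gene past the threshold, and the 3 genes with the smallest unadjusted p come first. *Lpin1* measured 10.64, 12.58 and 12.75 log2 on extract arrays, against 11.36, 10.50 and 9.62 on ob/ob vehicle arrays. Extract 1 fell among the ob/ob vehicle arrays and the other extract arrays were above all of them. The difference of 1.5 log2 (SE 0.58, 2.82-fold, 95% confidence interval 0.22 to 2.77) had an unadjusted p of 0.0256 in limma and did not pass over all clusters (adjusted p = 0.765).

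*Agpat2* measured 12.19, 13.10 and 12.93 log2 on extract arrays, against 14.23, 14.07 and 13.17 on ob/ob vehicle arrays. All extract arrays were under all ob/ob vehicle arrays, though extract 2 and ob/ob vehicle 3 were close; *Agpat2* was the 1 gene of the 10 with such a gap, found in 13.6% of the whole table (7.47% higher, 6.08% lower). The difference was −1.08 log2 (SE 0.45, 2.12-fold lower, unadjusted p = 0.0353, limma adjusted p = 0.765).

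*Gpam* measured 16.58, 16.30 and 14.39 log2 on extract arrays, against 17.73, 16.78 and 16.41 on ob/ob vehicle arrays. Extract 3 was far under the other arrays of both groups and extract 1 was within the ob/ob vehicle range. The difference was −1.22 log2 (SE 0.60, adjusted p = 0.784), and it ran from −1.63 to −0.53 over 18 alternatives.

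*Agpat3* had 14.37, 15.12 and 14.04 log2 on extract arrays (difference −0.50 from ob/ob vehicle, SE 0.53). *Mogat1* had 8.92, 8.95 and 8.0 log2 (difference −0.36, SE 0.40, 95% confidence interval −1.26 to 0.53). Extract 3 was the lowest of the 6 ob/ob arrays in *Mogat1*, and the ranges of the groups overlapped in both genes. *Dgat2* was nearly level over the extract arrays at 14.79, 15.10 and 15.06 log2, and its difference was −0.15 (SE 0.50, interval −1.26 to 0.97). *Lpin2* had 13.81, 13.96 and 12.71 log2 on extract arrays (difference 0.68, SE 0.78).

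The dim genes *Dgat1* (5.28 to 6.22 log2 on extract arrays), *Mogat2* (4.53 to 5.64) and *Lpin3* (4.38 to 5.61) differed from ob/ob vehicle by 0.17, 0.11 and −0.06 log2. By the design text's criterion 2 of the 10 genes differed, *Lpin1* higher and *Agpat2* lower, where 6.45% of all clusters did (3.56% higher, 2.9% lower). With an adjusted p, 0 of the 10 passed in any alternative to the limma fit, array weights and leaving out ob/ob vehicle 3 with wild-type vehicle 3 included; in that last fit 1.62% of all clusters passed. The smallest adjusted p over them were 0.0865 (*Agpat3*), 0.0982 (*Agpat2*) and 0.137 (*Lpin1*). The median difference of the 10 genes was −0.10 log2, against −0.01 over all clusters. Of 6 measured macrophage markers 0 passed in this comparison either (smallest limma adjusted p = 0.707). By the design text's criterion 3 were lower with the extract, where 2.9% of all clusters were. Those were *Cd5l* (−2.13 log2), *C1qb* (−1.07) and *Adgre1* (−1.05). Of the 6, 1 had a difference above 0, *Clec4f* (0.15 log2). The mean of the 6 markers was 5.66 to 6.90 log2 on extract arrays and 6.86 to 7.36 on ob/ob vehicle arrays. Their part in the values above was not tested. An absent call does not show that the extract left these genes as they were, since the intervals run up to 2.77 log2 (*Lpin1*).

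The third comparison set extract-treated ob/ob liver against wild type. *Mogat1* was higher by 2.80 log2 (SE 0.40, 6.98-fold, limma adjusted p = 0.0094) and was the 1 gene of the 10 that passed, where 1.29% of all clusters did (0.977% higher, 0.315% lower). The median difference over the 10 genes was 0.87 log2, against −0.05 over all clusters. The lowest *Mogat1* value with the extract (8.0 log2) was above the highest wild-type array (6.70). The call was lost without extract 1 (adjusted p = 0.0538) or extract 2 (0.0693).

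The other genes that had differed between ob/ob vehicle and wild type lay closer to wild type with the extract and did not pass. Beside the differences of ob/ob vehicle given above, extract minus wild type was 1.56 log2 for *Gpam* (SE 0.60, adjusted p = 0.278), 1.53 for *Agpat2* (SE 0.45, 0.156) and −1.75 for *Lpin1* (SE 0.58, 0.203). The comparisons share arrays, so these values are not independent of those above, and passing in one and not in the other is no test of the extract. *Agpat2* passed with array weights (0.0403) and without wild-type vehicle 1 (0.041), *Agpat3* (1.46 log2, adjusted p = 0.252) without ob/ob vehicle 3 (0.0356), and *Lpin2* (1.35 log2, 0.475) without both arrays that stood apart (2.32 log2, 0.0148). The extract and wild-type arrays were fully apart in 4 of the 10 genes, *Mogat1*, *Agpat2* and *Agpat3* higher and *Lpin1* lower, and in 21.7% of the whole table (11.1% higher, 10.6% lower). By the design text's criterion 5 of the 10 differed (4 higher, 1 lower), where 14% of all clusters did (8.21% higher, 5.82% lower).

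Around these enzymes 77 further genes of glycerolipid metabolism were listed, with earlier results of these data known, and 70 of them were measured. The other 7, among them *Srebf1* and *Acsl1*, were not analysed here. Between ob/ob vehicle and wild type 5 of the 70 were higher and 1 lower in limma (8.57%, against 2.96% of all clusters), with a median difference of 0.17 log2. Without both arrays that stood apart 12 were higher and 1 lower, a pass rate of 18.6% beside 7.86% of all clusters. Between extract and ob/ob vehicle 0 of the 70 passed, as did 0% of all clusters. By the design text's criterion 2 were higher and 2 lower, beside 6.45% of all clusters, with a median difference of 0.03 log2. Without both arrays 3 passed, all lower (*Plpp2*, *Selenoi* and *Cdipt*), 4.29% beside 1.62% of all clusters. In that fit the median difference was −0.23 log2, against 0.03 over all clusters. The sign of the median in this list thus rests on ob/ob vehicle 3, since wild-type arrays do not enter this difference.

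*Gpd1* makes the glycerol 3-phosphate that GPAT enzymes use. It measured 17.54, 17.78 and 16.59 log2 on ob/ob vehicle arrays, against 14.91, 14.04 and 14.52 on wild-type arrays. The groups were well apart, by 2.81 log2 (SE 0.40, 7.03-fold, adjusted p = 0.00601), and *Gpd1* passed in 18 of 18 alternatives. It was the 1 gene of 7 measured in its list to pass, where 2.96% of all clusters did. On extract arrays it had 16.19, 17.01 and 15.89 log2, −0.94 from ob/ob vehicle (SE 0.40, adjusted p = 0.767).

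Of the 11 acyltransferases outside the 10 genes 1 passed in limma, where 2.96% of all clusters did. It was *Lclat1*, which encodes a lysocardiolipin acyltransferase (1.69 log2, SE 0.35, limma adjusted p = 0.0346). Its call was lost without any single array other than ob/ob vehicle 3 and wild-type vehicle 1 (adjusted p = 0.0511 to 0.130) and with only the 2 groups in the fit (0.107). The microsomal GPAT genes *Gpat3* (0.92 log2) and *Gpat4* (0.40) did not pass (adjusted p = 0.173 and 0.667), nor did *Agpat1* (0.15, 0.898) or *Agpat5* (0.73, 0.177). Among 6 measured acyl-CoA synthetases 0 passed, and 2 were higher by the design text's criterion, where 10.3% of all clusters were. *Slc27a4*, a fatty acid transport protein with that activity, came closest (1.34 log2, SE 0.39, adjusted p = 0.106) and passed without ob/ob vehicle 3 (0.00937).

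*Chpt1* uses diacylglycerol for phosphatidylcholine and so leaves the triglyceride route at its branch point. It measured 15.89, 15.66 and 15.68 log2 on ob/ob vehicle arrays, against 12.13, 11.65 and 11.65 on wild-type arrays. The difference of 3.93 log2 (SE 0.28, 15.3-fold, adjusted p = 9.54e-05) was larger than that of any of the 10 genes. It was the 1 of 15 genes of the phosphatase and phospholipid list to pass, where 2.96% of all clusters did. On extract arrays *Chpt1* had 14.18, 15.06 and 14.41 log2, each under all ob/ob vehicle arrays (−1.19, SE 0.28, adjusted p = 0.593) and above all wild-type arrays (2.74, SE 0.28, adjusted p = 0.00147). *Pemt*, of the other liver route to phosphatidylcholine, differed by 0.11 log2 (adjusted p = 0.920). Of 8 measured diacylglycerol kinases 0 passed in limma, and 1 was lower by the design text's criterion, where 6.72% of all clusters were. That gene was *Dgkq* (−0.66 log2, limma adjusted p = 0.254), with 2 ob/ob vehicle values and 1 wild-type value in the olfactory receptor range.

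Of 14 measured transcription factors and coactivators tied to these genes 1 was higher and 1 lower in limma. Over all clusters 2.28% were higher and 0.68% lower. *Pparg*, the factor that drives lipid storage genes in adipocytes, had 10.93, 10.57 and 8.61 log2 on ob/ob vehicle arrays, against 6.37, 7.09 and 6.11 on wild-type arrays. It was higher by 3.51 log2 (SE 0.54, 11.4-fold, adjusted p = 0.00922), with ob/ob vehicle 3 below the other arrays of its group. On wild-type array 3 it was within the olfactory receptor range. With the extract it was at 9.52, 9.90 and 9.23 log2, within the range of ob/ob vehicle (−0.49, SE 0.54) and 3.03 above wild type (adjusted p = 0.0254, lost without any single extract or wild-type array, 0.0548 to 0.147).

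*Mlxipl* is the gene of ChREBP, a factor that responds to carbohydrate. It had 11.76, 12.23 and 9.65 log2 on ob/ob vehicle arrays, against 13.43, 15.09 and 15.16 on wild-type arrays. The difference was −3.35 log2 (SE 0.65, adjusted p = 0.0267), and the call was lost on dropping ob/ob vehicle 1 (0.0638), wild-type vehicle 2 (0.117), wild-type vehicle 3 (0.0941) or extract 2 (0.0562) and with only the 2 groups in the fit (0.0925). *Ppara* (0.67 log2, adjusted p = 0.642) and *Ppargc1a* (−0.97, 0.602), the partners of lipin 1, did not pass. Among 9 genes for seipin, lipin regulation and lipid export 1 passed in limma, where 2.96% of all clusters did. It was *Fitm1*, of lipid droplet formation (2.34 log2, SE 0.35, limma adjusted p = 0.00795), with wild-type arrays 2 and 3 in the olfactory receptor range. *Mttp* (0.97, adjusted p = 0.316), which loads triglyceride onto apolipoprotein B, did not.

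**Figure D4:**
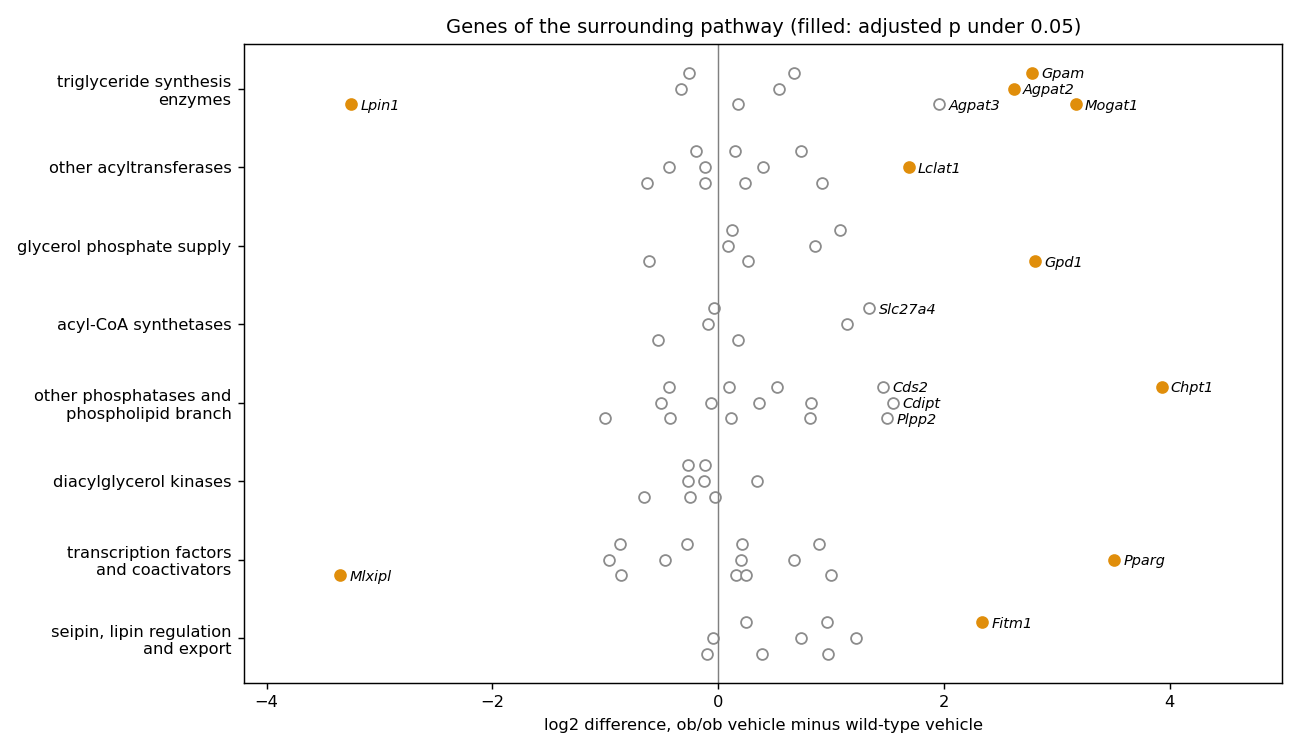
Log2 difference between ob/ob vehicle and wild type (horizontal axis) for every measured gene of the 10 enzymes and the 7 surrounding lists (rows); filled points passed at an adjusted p under 0.05 and these and others far from 0 are named. *Chpt1*, *Pparg*, *Gpd1*, *Fitm1* and *Lclat1* lie to the right with *Mogat1*, *Gpam* and *Agpat2*, and *Mlxipl* lies to the left with *Lpin1*.

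Fat cells are rich in several of these transcripts, and in bulk tissue fewer cells of a type cannot be told apart from less RNA per cell. Of 8 adipocyte markers 7 were measured, and their mean lay at 5.79 to 6.34 log2 on extract arrays, 5.91 to 6.09 on ob/ob vehicle arrays and 5.03 to 5.44 on wild-type arrays. *Adipoq*, *Plin1*, *Lep* and *Retn* were within the olfactory receptor range on all 9 arrays. *Cidec* (4.61 log2, adjusted p = 0.0402) and *Fabp4* (1.89, 0.0235) were higher in ob/ob vehicle than in wild type. The call was lost in 8 of 18 alternatives for *Cidec* (adjusted p up to 0.148) and in 5 for *Fabp4* (up to 0.100). On wild-type array 3 *Cidec* was within the olfactory receptor range. The other markers did not pass: *Lpl* differed by −0.41 log2 (adjusted p = 0.621), and *Plin1* by −0.91 (0.0839) with all ob/ob vehicle arrays under all wild-type arrays. Of the 7 measured, 4 differences were below 0 and the median was −0.09 log2. Of 7 enterocyte markers *Vil1*, *Cdx2*, *Lct* and *Sis* were in that range on all arrays. *Apoa4* was higher in ob/ob vehicle (8.30 log2, adjusted p = 1.31e-04), and *Fabp2* (1.93, 0.159) and *Cdx1* (−0.49, 0.433) did not pass; 5 of the 7 differences were below 0. On wild-type arrays the mean of the macrophage markers was 6.41 to 7.22 log2. Among the 24 measured macrophage, sinusoidal endothelial, stellate, cholangiocyte and lymphocyte markers 0 passed in limma between ob/ob vehicle and wild type, the smallest adjusted p of the 5 lists being 0.172 (*Sox9*), and 4 were higher and 1 lower by the design text's criterion (20.8%, beside 17% of all clusters). The part of other cell types in the results above was not tested.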

How the data were processed

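The deposited table holds a log2 value for each transcript cluster on each array, running from 1.86 to 19.93. Per the design text they were made with Transcriptome Analysis Console and SST-RMA, which normalizes between arrays and stretches fold changes, so the size of a difference depends on that step. The genome build of the array is not given in the sources used here. Detection calls were not used here. Symbols came from the platform annotation (19572 of 22206 clusters had 1 symbol, 2634 none); promoters came from RefSeq, GRCm38.p6, for 7 of the 10 genes (not *Mogat2*, *Dgat1* and *Dgat2*).

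The fit was made in limma 3.58.1 under R 4.3.3, with a mean per group over all 9 arrays (6 residual and 4.45 prior degrees of freedom), with Benjamini-Hochberg adjustment over all 22206 clusters and a threshold of 0.05. The fit was tested on simulated data. The number of arrays, 3 per group, limits the precision. All 10 genes are named. Of the surrounding pathway lists, every gene that passed in ob/ob vehicle against wild type is named, or else the one with the smallest p. Further pathway genes were picked after their values were seen (*Gpat3*, *Gpat4*, *Agpat1*, *Agpat5*, *Pemt*, *Ppara*, *Ppargc1a*, *Mttp*, *Plpp2*, *Selenoi*, *Cdipt*). Every measured hepatocyte, adipocyte and enterocyte marker is named. Of the other cell type markers *Sox9* is named, with the smallest adjusted p of those lists. *Cd5l*, *C1qb*, *Adgre1* and *Clec4f* were picked by their values, and no other is named. Most alike means the highest Pearson correlation over the 9 arrays. The members and lists were chosen with earlier results of these data known.

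Replicate numbers are shared by the groups. Once group means were removed, arrays with the same number correlated at 0.256, 0.262 and 0.450 between ob/ob vehicle and wild type, and a replicate block was fitted as an alternative. Arrays of different number reached 0.260 (ob/ob vehicle 2 with wild-type vehicle 1) and 0.218 (1 with 2), so the correlations set array 3 of both groups apart and do not tell numbers 1 and 2 apart; the labels do not say what a number marks. Between extract and the other groups the correlations were −0.208 to 0.016. Alternatives were quantile normalization, median centring, leaving out dim clusters, only the 2 groups compared, the block, array weights, another eBayes setting and leaving out arrays.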

Additional observations from a re-analysis of the deposited data

How the results depend on the processing

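Between ob/ob vehicle and wild type, 2 members passed with only the 2 groups in the fit, 5 with the replicate block, against 4, and between 1 and 5 when 1 array was left out. The block, on numbers that the correlations tell apart only for array 3, added *Agpat3* (0.0368) and changed no other member's call. Over all clusters 658 passed, and 147 to 1679 did without 1 array. The count was 1745 without both arrays that stood apart, 2137 with array weights, 579 with the block and 207 with only the 2 groups. Between extract and ob/ob vehicle the design text's criterion gave 2 members (6.45% of all clusters), against 0 (0%). Between extract and wild type 2 members passed with array weights (3.58% of all clusters), 2 without both arrays (2.68%) and 0 to 2 without 1 array (0.347% to 2.69%), against 1 (1.29%). By the design text's criterion 5 did (14%). Of the other pathway genes 13 passed without both arrays, against 6, in ob/ob vehicle against wild type (7.86% of all clusters, against 2.96%). In extract against ob/ob vehicle 3 passed, against 0 (1.62% of all clusters, against 0%). In extract against wild type 7 passed, against 3 (2.68% of all clusters, against 1.29%). For these genes that alternative was added after seeing the data. The cause was not tested.

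Signs turned only in differences that had not passed. Without 1 array, *Dgat1* ran from −0.06 to 0.62 and *Lpin3* from −0.54 to 0.07 in ob/ob vehicle against wild type. In extract against ob/ob vehicle *Mogat2* ran from −0.11 to 0.44, *Dgat1* from −0.27 to 0.46, *Dgat2* from −0.66 to 0.19, *Lpin3* from −0.45 to 0.16 and *Mlxipl* from −0.18 to 1.11. In extract against wild type *Mogat2* ran from −0.45 to 0.11, *Dgat2* from −0.09 to 0.81 and *Lpin3* from −0.72 to 0.01. For extract against ob/ob vehicle, array weights gave 0.00 (*Mogat2*), −0.09 (*Dgat1*), 0.04 (*Lpin3*) and −0.10 (*Mlxipl*), and leaving out both arrays gave −0.09, −0.27, 0.07 and −0.18. Without both arrays *Dgat2* was −0.09 in extract against wild type. *Lpin3* was not among the clusters kept when the lowest 50% were left out. Signal near background limits *Dgat1*, *Mogat2*, *Lpin3* and the wild-type level of *Mogat1*.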
